A study of Mus musculus with 10 samples.

Results

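The collagen genes are described here as they were measured in the livers of 10 mice, of which 5 had received an antisense oligonucleotide, the ASO, that blocks the liver microRNA miR-122. They were taken by symbol, as every gene of the form Col, number, a, number that had an array probe annotated to that gene alone. The probe annotation held 41 such genes. Col17a1 had no value on any array and was left out, which left 40 collagen genes of 18012 genes measured. They were kept in 3 classes, with 11 fibrillar collagens, 8 collagens of basement membranes and 21 of other types. Where a gene had 2 probes, as 12 of them did, the probe with the higher mean over all arrays stood for it.

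Collagens are triple helices of 3 chains, built from repeats that start with glycine. Fibrillar collagens pack into the fibres that give a tissue its tensile strength, and type IV collagen forms the mesh of basement membranes, to which laminins, nidogens and perlecan bind. In liver the hepatic stellate cell is the best known source of fibrillar collagen, and its output rises in fibrosis. Sinusoids lack a dense basement membrane, while vessels and bile ducts have one. Hepatocytes are known to make collagen XVIII, whose C-terminal fragment is endostatin.

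Per the labels, the ASO mice were male C57Bl/6 animals given 50 mg/kg into the peritoneum 2 times a week for 4 weeks, and the control mice received saline on that schedule. Mice were killed 2 days after the final injection, and sex, strain and age of the saline mice are not given in the labels. The oligonucleotide had 2′-O-methoxyethyl sugars and a phosphorothioate backbone. Because no oligonucleotide of another sequence was given as a control, the effect of its chemistry and that of blocking miR-122 cannot be told apart.

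Each liver was hybridised to its own 1-colour CodeLink array. The deposited intensities had medians of 1.03 to 1.05, so that a log2 intensity of 0 lies close to the middle of an array. Values under 0.192 were raised to it, which puts a floor at -2.38 on the log2 scale. The floor understates both the differences and the spread of dim genes, so their p-values can come out smaller or larger than with no floor. Saline replicate 1 had a lower ceiling, 542, where the brightest probe of each other array reached 1198 to 2333. The liver label was checked on hepatocyte markers: Alb, serum albumin, was at 9.84 ± 0.59 in saline and 10.40 ± 0.21 in ASO mice (mean ± SD of log2 intensity, n = 5 per group), far above the middle of the arrays. A difference is the ASO mean less the saline mean in log2 units, with limma's standard error (SE), and adjusted p-values are Benjamini-Hochberg values over all 36088 tested probes with a threshold of 0.05. Each probe has its own brightness, so levels served to choose probes and the genes described singly, and a higher level of one gene than of another is not read as more RNA.

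No collagen gene passed the adjusted threshold, in either direction. Over all probes 23 of 36088 did (0.0637%). At an unadjusted p under 0.05, 2 of the 40 collagen genes stood higher in ASO livers and 6 lower. These shares were 5.0% and 15.0%, beside 4.21% higher and 8.26% lower over all genes with 1 probe per gene. Among the 23 collagen genes above the median level of all probes, 4 were in the lower set (17.4%, beside 11.3% of all genes above that level). The groups did not overlap in 2 collagen genes, both with lower values after the ASO (5.0%, beside 1.72% of all genes), and in no collagen gene with higher values (0.96% of all genes). The 2 genes were Col5a3 and Col4a6. No list was tested, so the differences between these shares are descriptions.

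The collagen genes as a whole were balanced, with 19 differences above 0 and 21 below, and a median of -0.02. Over all genes with 1 probe each the median was -0.04. Brighter genes leaned lower in general: above the median level of all probes, 62.6% of all genes had a difference below 0 (median -0.11). Of the 23 collagen genes above that level, 13 did (56.5%, median -0.08). The fibrillar genes had a median of 0.01 with 6 above and 5 below 0, the basement membrane genes -0.26 with 3 above and 5 below, and the other types -0.02 with 10 above and 11 below. Without 1 array at a time the basement membrane median stayed between -0.33 and -0.20, while the fibrillar median lay between -0.18 and 0.09. Of the 8 genes with an unadjusted p under 0.05, 4 were fibrillar, 3 belonged to basement membranes and 1 to the other types.

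**Figure D1:**
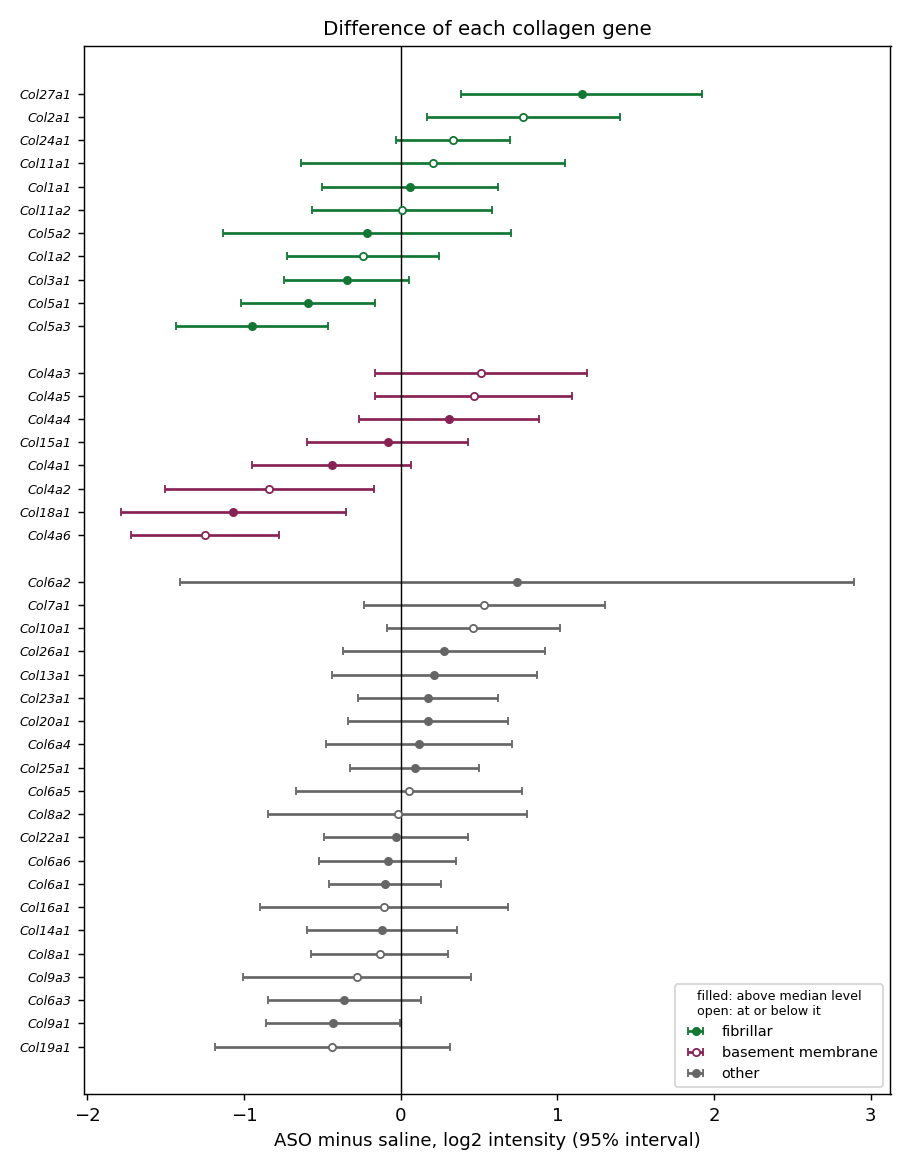
Difference in log2 intensity (ASO minus saline, x axis) of each of the 40 collagen genes, by class, with 95% intervals from limma over 5 mice per group. Filled points are genes above the median level of all probes. Most intervals span 0, the lowest differences are those of Col4a6 (-1.25), Col18a1 (-1.07) and Col5a3 (-0.95), and the highest is that of Col27a1 (1.16).

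The stretches of genome before the transcription starts are shown for the genes with the 4 largest differences and for Col4a5, the head-to-head neighbour of Col4a6. Each is the 120 bases before an annotated start, 5′ to 3′ on the gene's strand, from RefSeq's GRCm38.p6. Col18a1 has 2 entries because RefSeq places starts in 2 parts of the gene, and the array does not tell which start a transcript used. Capitals mark 3 motifs, each searched on both strands: GGGCGG, which is the core of a GC box and reads CCGCCC on the other strand, the CCAAT box, and the TATAAA of a TATA box.
Col5a3, chr9:20815068-20815187, minus strand: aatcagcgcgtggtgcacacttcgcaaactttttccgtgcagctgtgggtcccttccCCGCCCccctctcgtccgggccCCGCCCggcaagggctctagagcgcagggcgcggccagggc
Col18a1, upstream start, chr10:77166531-77166650, minus strand: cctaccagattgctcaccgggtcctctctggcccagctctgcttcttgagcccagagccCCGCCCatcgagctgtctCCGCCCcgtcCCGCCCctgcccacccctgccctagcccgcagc
Col18a1, downstream start, chr10:77113706-77113825, minus strand: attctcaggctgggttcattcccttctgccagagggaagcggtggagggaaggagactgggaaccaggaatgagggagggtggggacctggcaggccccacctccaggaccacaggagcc
Col27a1, chr4:63215292-63215411, plus strand: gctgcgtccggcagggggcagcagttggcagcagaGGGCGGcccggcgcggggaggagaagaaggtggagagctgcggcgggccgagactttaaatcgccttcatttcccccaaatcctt
Col4a6, chrX:141474077-141474196, minus strand: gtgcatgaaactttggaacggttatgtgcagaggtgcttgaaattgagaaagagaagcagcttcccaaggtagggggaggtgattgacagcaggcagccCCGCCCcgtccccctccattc
Col4a5, chrX:141475299-141475418, plus strand: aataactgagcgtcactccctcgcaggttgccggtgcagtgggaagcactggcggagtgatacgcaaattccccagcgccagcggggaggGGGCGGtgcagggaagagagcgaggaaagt

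The window of Col5a3 held 2 GC box cores, that of the upstream Col18a1 start 3, and those of Col27a1, Col4a6 and Col4a5 had 1 each. The downstream Col18a1 window held none of the 3 motifs. Neither CCAAT nor TATAAA was found in the 6 windows. Of all 32851 such windows in the table, 26.5% held a GC box core, 21.3% CCAAT and 6.34% TATAAA. A GC box core was not particular to collagen genes with large differences. The windows of Col11a2, Col6a6 and Col8a2, with differences of 0.01, -0.08 and -0.02, held 1, 1 and 4 cores. Other collagen windows, such as those of Col1a2 and Col6a1, held none. These are matches of letters and say nothing about which factors bind there.

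Among fibrillar collagens, the chain of type V known as Col5a3 separated the groups. Type V collagen sits inside type I fibrils and helps to set their diameter. Its log2 intensities were 4.26, 4.32, 4.53, 4.78 and 4.33 in saline replicates 1 to 5 and 4.14, 3.60, 3.46, 2.97 and 3.30 in ASO replicates 1 to 5. Every ASO liver was below every saline liver, with ASO replicate 1 closest to them. The means were 4.44 ± 0.22 and 3.50 ± 0.43 (SD, n = 5 per group), a difference of -0.95 ± 0.22 (SE), and limma's adjusted p was 0.18. Over the alternative settings and single arrays left out, the difference stayed between -1.11 and -0.82 and the adjusted p between 0.0795 and 0.37.

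Col5a1, which encodes the chain common to most type V trimers, had a smaller difference. It stood at 0.79, 0.88, 1.09, 0.73 and 0.54 in saline mice and at 0.39, -0.28, 0.62, 0.07 and 0.29 in ASO mice. The groups overlapped only through saline replicate 5 and ASO replicate 3. The difference was -0.59 ± 0.20 (limma adjusted p = 0.298). A second Col5a1 probe gave -0.28 ± 0.42. Col5a2, the partner chain, gave -0.22 ± 0.42, with ASO mice spread from -1.11 (replicate 2) to 1.71 (replicate 4). Without ASO replicate 2 the Col5a2 difference was 0.16.

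The chains of the 2 main collagens of scar tissue did not separate the groups. Col1a1, the major chain of type I, was at 0.26, 0.80, 0.97, 1.20 and 1.08 in saline and 0.84, 1.53, 1.16, 0.81 and 0.26 in ASO mice. The 2 ranges lie on top of each other, and the difference was 0.06 ± 0.26 with a 95% interval of -0.50 to 0.62. Without 1 array at a time it ran from -0.09 to 0.22. Col1a2, the second type I chain, had 0.22, 0.13, -0.24, -0.09 and -0.75 in saline and -0.60, -0.56, -0.55, 0.12 and -0.36 in ASO mice. Its difference of -0.24 ± 0.22 had an interval of -0.73 to 0.25.

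Col3a1, the single chain of type III collagen, which runs with type I in vessel walls and portal tracts, was bright and tight. Its values were 4.89, 5.59, 5.14, 5.20 and 5.02 in saline mice and 4.73, 4.61, 5.18, 4.72 and 4.89 in ASO mice. The groups overlapped, and the means of 5.17 ± 0.27 and 4.83 ± 0.22 (SD, n = 5 per group) differed by -0.34 ± 0.18 (limma adjusted p = 0.51, 95% interval -0.74 to 0.06). Under quantile normalization the Col3a1 difference was -0.18. Each of these 3 intervals includes a 1.5-fold change in 1 direction, the smallest size that the design text set out to detect.

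Col27a1, a fibrillar collagen of cartilage, had the largest difference upward, at the brighter of its probes. That probe read 5.29, 5.11, 4.40, 3.80 and 3.54 in saline mice and 5.85, 5.86, 5.21, 5.96 and 5.05 in ASO mice. The saline livers were widely spread, and the 2 highest of them overlapped with ASO replicates 3 and 5. The means were 4.43 ± 0.77 and 5.59 ± 0.42 (SD, n = 5 per group), a difference of 1.16 ± 0.35 (limma adjusted p = 0.273). The second probe, which the annotation ties to a reference transcript of the gene (the bright one is tied to a cDNA clone), gave 0.19 ± 0.23, and the mean of both probes 0.67. Col27a1 is therefore reported as uncertain.

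Col2a1, the chain of cartilage collagen and 1 of the 11 fibrillar genes counted above, is described singly because its unadjusted p was under 0.05, a choice made after its values were seen. It was dim, at -1.09, -0.87, -1.64, -1.74 and -2.38 (the floor) in saline and -1.29, -0.49, -0.80, -0.59 and -0.62 in ASO mice. The difference was 0.78 ± 0.28 with groups that overlapped (limma adjusted p = 0.339). The other fibrillar chains, Col11a1, Col11a2 and Col24a1, had differences of 0.21, 0.01 and 0.33, and the type XI chains were at the floor on several arrays.

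**Figure D2:**
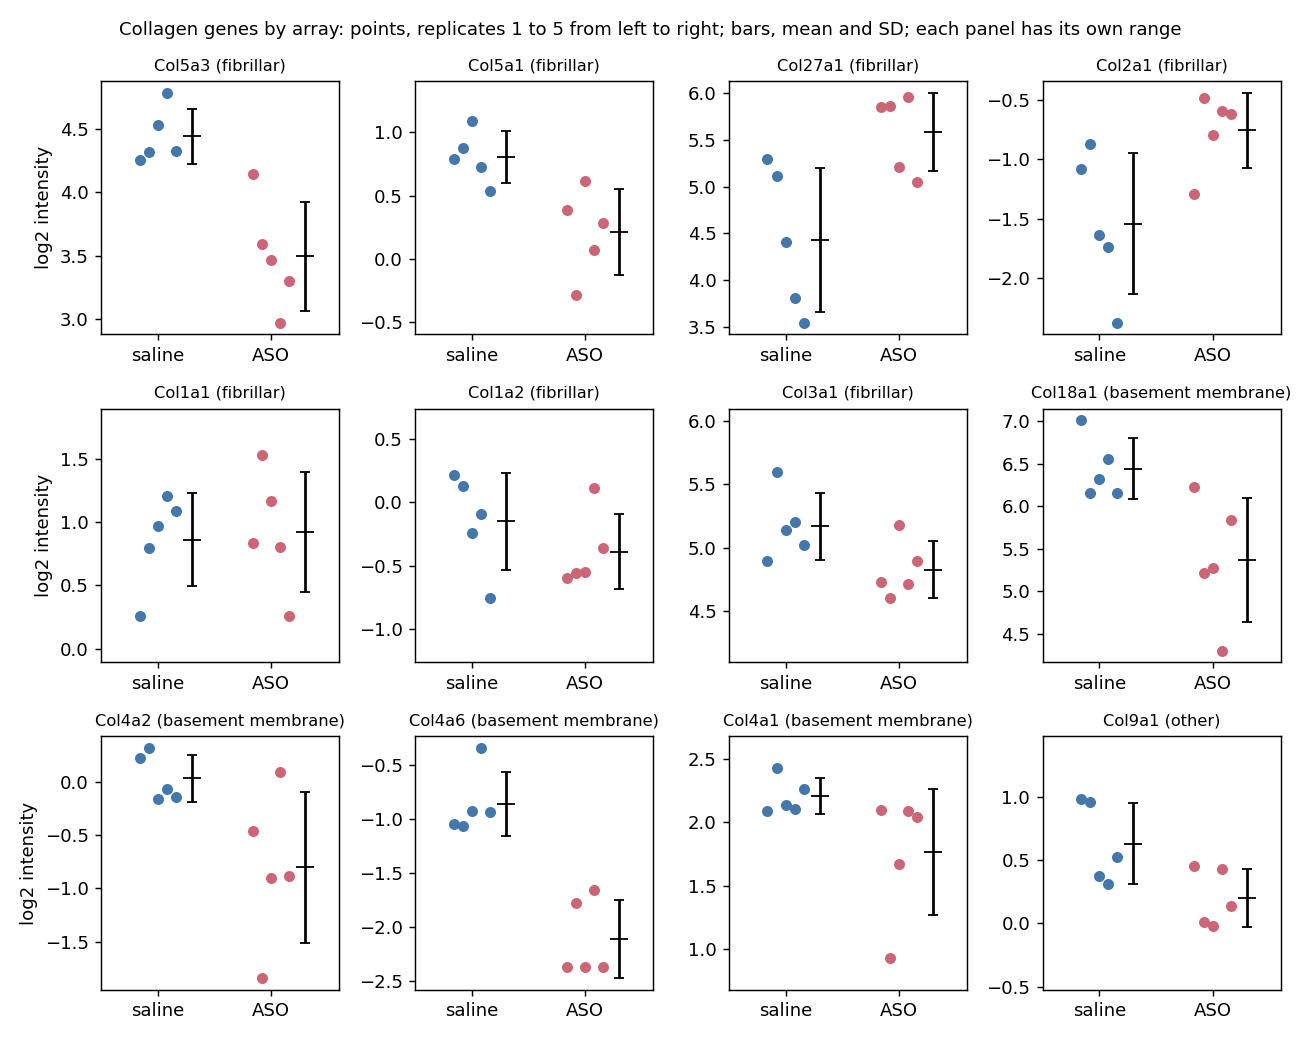
Log2 intensity (y axis, a range of its own in each panel) of 12 collagen genes on each array, with saline mice in blue and ASO mice in red, replicates 1 to 5 from left to right, and mean ± SD as bars (n = 5). The groups do not overlap in Col5a3 and Col4a6, and lie over each other in Col1a1. The 3 lowest ASO values of Col4a6 are at the floor of -2.38.

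Among basement membrane collagens, the most negative differences were those of Col4a6, Col18a1 and Col4a2. Col18a1, the endostatin precursor, was at 7.01, 6.16, 6.32, 6.55 and 6.15 in saline replicates 1 to 5 and at 6.23, 5.21, 5.27, 4.30 and 5.84 in ASO replicates 1 to 5. The groups overlapped through ASO replicate 1 alone, and ASO replicate 4 was the lowest. The means were 6.44 ± 0.36 and 5.37 ± 0.73 (SD, n = 5 per group), a difference of -1.07 ± 0.33 (limma adjusted p = 0.276). The difference was -0.80 without ASO replicate 4 and -1.28 without ASO replicate 1, and the adjusted p ran from 0.146 to 0.542 over all alternatives.

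Col4a1 and Col4a2 encode the chains of the ubiquitous type IV trimer and are transcribed away from each other from a shared promoter. RefSeq's starts of these genes cross each other by 21 bases. Col4a1 read 2.09, 2.43, 2.14, 2.11 and 2.26 in saline and 2.10, 0.93, 1.67, 2.09 and 2.05 in ASO mice. ASO replicates 1, 4 and 5 were close to the saline livers, and replicates 2 and 3 were below them. Its difference was -0.44 ± 0.23 (limma adjusted p = 0.506), and -0.23 without ASO replicate 2.

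Col4a2 read 0.23, 0.33, -0.16, -0.06 and -0.14 in saline and -0.46, -1.84, -0.90, 0.09 and -0.88 in ASO mice. ASO replicate 4 lay within the saline range and the other 4 lay below it. The difference was -0.84 ± 0.31 (limma adjusted p = 0.347), -0.58 without ASO replicate 2 and -1.06 without ASO replicate 4. With a pseudocount of 0.5 in place of the floor it was -0.48. Both genes were lowest in ASO replicate 2, which alone held the lowest value of the 10 arrays in 9 of the 40 collagen genes. Among these 9 were also Col3a1, Col5a1 and Col5a2. Genes whose lowest value was shared by several arrays at the floor are not in this count. ASO replicate 2 also held the highest value in 6, among them Col1a1 and Col4a4. The matching shares over all genes were not computed.

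In the fit with the floor, Col4a6 had the smallest p of the 40 genes. It encodes a type IV chain of specialised basement membranes and lies head to head with Col4a5, with 1343 bases between the annotated starts. Its values were -1.05, -1.06, -0.93, -0.34 and -0.94 in saline and -2.38, -1.78, -2.38, -1.66 and -2.38 in ASO mice, so that 3 ASO livers were at the floor. The groups did not overlap. The difference was -1.25 ± 0.22 with a limma adjusted p of 0.0849, and 0.0362 under cyclic loess normalization, where it was the 1 collagen gene that passed. With no floor the difference was -2.41 and the adjusted p 0.432, where ASO replicate 5 entered with an intensity of 0.005, and with a pseudocount of 0.5 it was -0.64. Its unadjusted limma p was 0.0238 with no floor and 0.00116 with the pseudocount, above those of Col5a3 (0.00204 and 0.000385). Col4a6 was below the median level of all probes in both groups, at 0.478 to 0.788 in saline and 0.005 to 0.316 in ASO mice in deposited intensity.

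The neighbour Col4a5, whose upstream window also held 1 GC box core, had a difference of the other sign, 0.46 ± 0.29. Col4a3 and Col4a4, which form a trimer with it in the glomerulus, were at 0.51 ± 0.31 and 0.31 ± 0.26, and the second Col4a4 probe gave 0.31 ± 0.20. Of these 3 genes, Col4a4 alone was above the median level of all probes. Col15a1, a relative of Col18a1, had a difference of -0.08 ± 0.23. None of these intervals excluded 0.

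Among the other types, the chains of collagen VI, which forms beaded filaments close to cells, showed no common direction. Col6a1 was the tightest, at 0.70, 0.63, 0.57, 0.84 and 0.83 in saline and 0.46, 0.76, 0.89, 0.68 and 0.28 in ASO mice, a difference of -0.10 ± 0.16. Col6a3 had -0.36 ± 0.22. Col6a2 was at 2.12 to 3.26 in saline mice and at 2.52, 1.51, 7.94, 2.42 and 2.46 in ASO mice, so that 1 array stood far above all others. Its difference of 0.74 ± 0.98 became -0.40 without that array, ASO replicate 3, and its second probe gave 0.05 ± 0.22. Col6a4 had 0.12 ± 0.27 at one probe and -0.50 ± 0.32 at the other, and Col6a5 and Col6a6 had 0.05 and -0.08.

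The collagens that attach to the surface of fibrils were mostly on the negative side, with 6 of 7 differences below 0 (85.7%, beside 54.9% of all genes). Their median of -0.12 was the value of Col14a1, whose sign turned under quantile normalization, and Col22a1 was at -0.03. Col16a1, Col19a1 and Col9a3 were each at the floor on at least 1 array. Col9a1, a chain of type IX collagen, was at 0.98, 0.96, 0.37, 0.31 and 0.52 in saline and 0.45, 0.01, -0.02, 0.43 and 0.13 in ASO mice. The groups overlapped, and the difference was -0.43 ± 0.20 (limma adjusted p = 0.441). Its second probe gave -0.01 ± 0.32. Col14a1, which binds type I fibrils and was bright here, had 4.13 ± 0.30 in saline and 4.01 ± 0.36 in ASO mice (SD, n = 5 per group), a difference of -0.12 ± 0.22. It was 0.0155 under quantile normalization. A dim second probe of Col14a1 gave -0.65 ± 0.26. Col22a1, Col20a1, Col16a1, Col19a1 and Col9a3 had differences from -0.44 to 0.18.

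The transmembrane collagens Col13a1, Col23a1 and Col25a1 had differences of 0.21, 0.18 and 0.09, all with intervals that span 0. Col26a1 was at 2.45 ± 0.65 and 2.73 ± 0.29, with saline replicate 5 low, and its difference of 0.28 ± 0.29 was -0.015 without that array. Col7a1, the anchoring fibril of skin, and the short chains Col8a1, Col8a2 and Col10a1 were below the median level of all probes. Col7a1 was at the floor on 4 saline and 3 ASO arrays. Col10a1, the hypertrophic cartilage collagen, had a difference of 0.46 ± 0.25 (limma adjusted p = 0.52).

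Of the 12 genes with 2 probes, the 2 differences had the same sign in 9. The genes whose probes lay furthest apart were Col27a1 and Col6a2, followed by Col6a4.

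**Figure D3:**
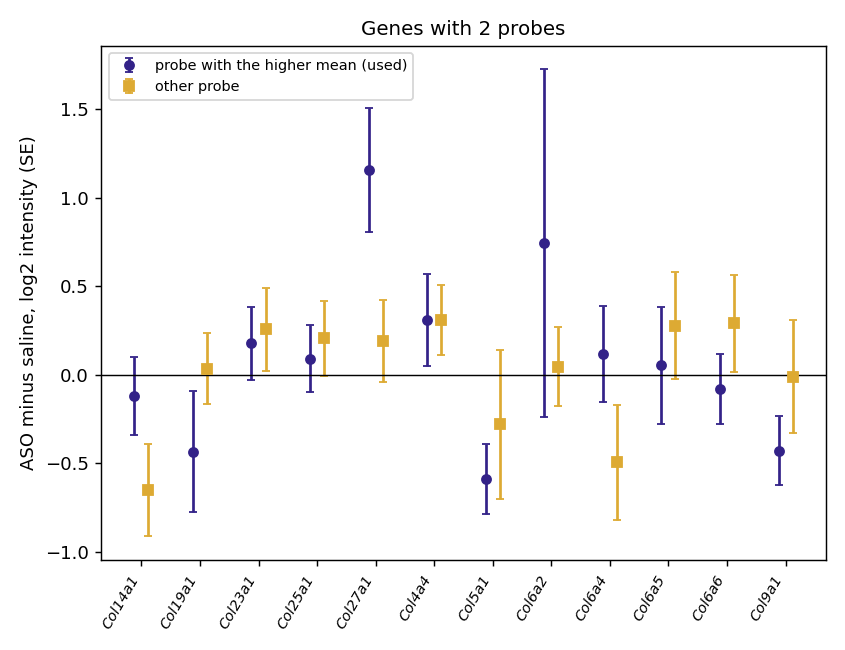
Difference in log2 intensity (ASO minus saline, y axis) with SE for the 12 collagen genes measured by 2 probes (n = 5 mice per group). The probe with the higher mean, used in the text, is the dark circle and the other probe the yellow square. Col27a1 reads 1.16 at one probe and 0.19 at the other, and Col4a4 reads 0.31 at both.

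For 7 pairs of chains that share a trimer or a fibril, levels were compared across the 10 arrays. Col4a1 and Col4a2 went together, with Pearson's r = 0.90 (permutation p = 0.00194, adjusted over the 7 pairs 0.0136). Spearman's rho was 0.66 (permutation p = 0.0452, adjusted 0.316). Without ASO replicates 2 and 3, the arrays farthest from the median of Col4a1, r was 0.54, so the relation rests in part on those arrays. As deviations from the group means it was 0.85. Col1a1 and Col1a2 had r = -0.48 (permutation p = 0.161, adjusted 0.377), rho = -0.55 (adjusted 0.363) and r = -0.48 without 2 arrays. The other 5 pairs had r from -0.01 to 0.44 with adjusted permutation p-values of 0.354 to 0.97. Without the 2 farthest arrays r turned from 0.35 to -0.22 for Col5a1 and Col5a2, and from 0.25 to -0.43 for Col6a1 and Col6a3.

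The genes that modify, trim, bind or degrade collagen gave no adjusted call either, with 79 measured in 7 lists. Of 18 genes for chain modification and folding, 7 differences were above 0 and 11 below (median -0.12), and at an unadjusted p under 0.05 there were 1 higher and 2 lower, beside 4.21% higher and 8.26% lower over all genes. Of these 18 genes, 14 were above the median level of all probes, where 11.3% of all genes were lower at that p. Colgalt2, which puts galactose on hydroxylysine, was at 0.98 ± 0.11 in saline and 1.73 ± 0.27 in ASO mice (SD, n = 5 per group). Its groups did not overlap, and the difference was 0.75 ± 0.17 (limma adjusted p = 0.165). P4hb, a subunit of prolyl 4-hydroxylase and protein disulfide isomerase, had a difference of -0.58 ± 0.23, and P3h3, a partner of lysyl hydroxylation, -0.48 ± 0.20.

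Genes for trimming and crosslinking (11 measured, median -0.18) had no member at an unadjusted p under 0.05, beside 4.21% higher and 8.26% lower over all genes. Lox, the lysyl oxidase that joins chains, was at 0.36 ± 0.23, Loxl3 at 0.26 ± 0.22 and Pcolce2 at -0.37 ± 0.25. The same held for the 12 genes of collagen breakdown (median 0.01), where the gelatinase Mmp2 was at -0.45 ± 0.40, Mmp9 at 0.35 ± 0.26 and Ctsk, cathepsin K, at 0.41 ± 0.22. Mmp2 was at -0.05 without ASO replicate 1. It held too for the 6 inhibitors of breakdown (median 0.05), with Timp2 at 0.26 ± 0.24, Timp4 at 0.44 ± 0.24 and Reck at -0.38 ± 0.22. Many of these genes were dim. Mean levels were below -1 in 7 of the 12 breakdown genes and 3 of the 6 inhibitors, among them Mmp9, Ctsk, Timp4 and Reck. Timp4 was at the floor on 4 saline and 2 ASO arrays. Among 8 receptors (median 0.04) Itgb1, the integrin beta chain, was at -0.59 ± 0.27, Itga2 at 0.47 ± 0.37 and Ddr1 at -0.36 ± 0.38 over 4 saline mice. Ddr1 was at -0.04 without ASO replicate 1.

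Of 12 inducers and signalling genes (median -0.21), Smad2 was the 1 at an unadjusted p under 0.05, and was lower, beside 8.26% of all genes lower. Of the 12, 8 were above the median level of all probes, where 11.3% of all genes were lower. Smad2, which carries the signal of TGF-beta to the nucleus, was at -0.70 ± 0.22 (limma adjusted p = 0.279). Tgfb3 was at -0.33 ± 0.16 and Smad4 at -0.36 ± 0.18. The partners of type IV collagen in basement membranes had 5 differences above 0 and 7 below (median -0.05), and 2 of the 12 were lower at an unadjusted p under 0.05, beside 8.26% of all genes. Of these 12 partners, 10 were above the median level of all probes, where the share of all genes was 11.3%. Nid2, a nidogen that links laminin to type IV collagen, had means of 2.11 ± 0.27 in saline and 1.28 ± 0.54 in ASO mice (SD, n = 5 per group). Hspg2, the core protein of perlecan, had 1.95 ± 0.40 and 1.25 ± 0.46. Their differences were -0.83 ± 0.26 and -0.70 ± 0.26 (limma adjusted p = 0.279 and 0.357). Lama3 was at -0.36 ± 0.19.

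**Figure D4:**
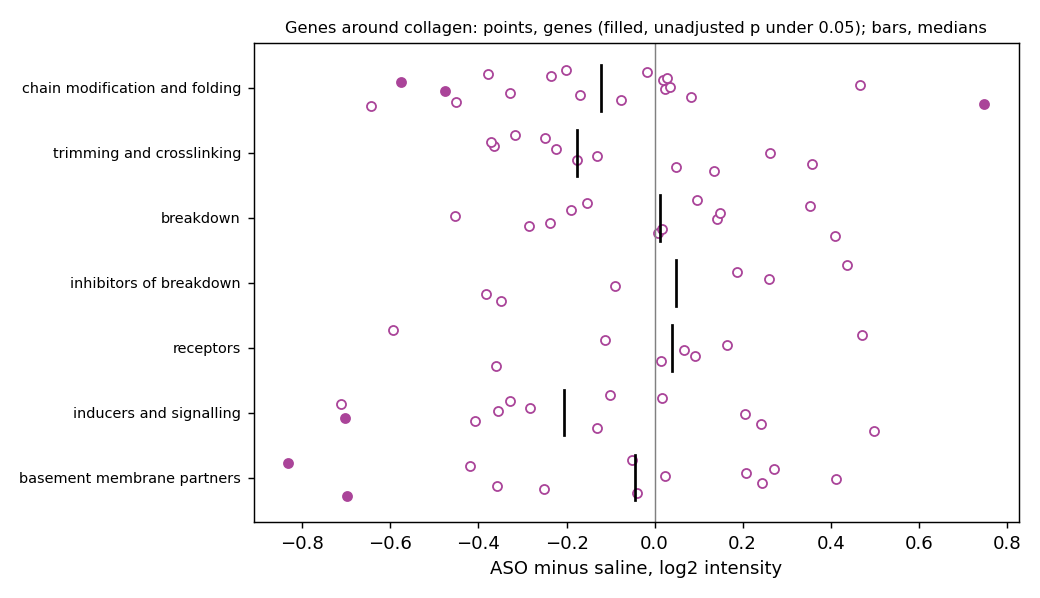
Difference in log2 intensity (ASO minus saline, x axis) of the genes in 7 lists around collagen, 1 point per gene, with medians as bars (5 mice per group). Filled points have an unadjusted p under 0.05 in limma, and none passed after adjustment. Colgalt2 (0.75) lies at the right and Nid2 (-0.83) at the left end.

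Markers of the cells that make collagen were set beside these values, with examples chosen after their values were seen. In whole liver, fewer cells of a type and less RNA per cell cannot be told apart. All 9 hepatic stellate cell markers were measured, 5 above and 4 below 0 with a median of 0.01, and their summed intensity was 284 to 318 in saline and 247 to 334 in ASO mice. Sums of markers are on the linear scale, so the brightest probes weigh most, here Ecm1 (mean log2 intensity 7.46 over all arrays). Rgs5 was at 0.65 ± 0.30, Pdgfrb, the PDGF receptor of these cells, at -0.41 ± 0.26, and no marker of any list was at the floor on all arrays. The 7 myofibroblast markers, 3 above and 4 below 0, had a median of -0.10 and summed to 21.2 to 25.8 in saline and 17.0 to 27.3 in ASO mice, with Postn at -0.85 ± 0.45, Acta2 at -0.78 ± 0.64, Tagln at -0.32 ± 0.25 and Lum at -0.10 below 0, and Cnn1 at 0.51, Fbln2 at 0.13 and Myl9 at 0.11 above it. Without ASO replicate 2, Acta2 was at -0.12 and Postn at -0.53.

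Of 5 portal fibroblast markers measured (median -0.02), Gas6 was at 0.72 ± 0.21, Fbln1 at 0.57 ± 0.23 and Eln, elastin, at -0.55 ± 0.26, and the sums were 14.0 to 15.9 and 15.6 to 25.7. Gas6, the brightest of the 5, weighs most in these sums. Its levels were 3.25 ± 0.22 in saline and 3.97 ± 0.37 in ASO mice (SD, n = 5 per group). The 7 sinusoidal endothelial markers had a median of 0.07 and sums of 61.5 to 118 and 44.7 to 155, with Cdh5 at 0.87 ± 0.28, Stab1 at 0.49 ± 0.32 and Lyve1 at -0.38 ± 0.47, or 0.023 without ASO replicate 2. The 4 bile duct markers had sums of 6.05 to 7.65 and 5.31 to 7.25 (Krt19 -0.62 ± 0.24, Epcam 0.14 ± 0.20, Krt7 -0.12 ± 0.20). The 5 Kupffer cell markers summed to 74.5 to 196 and 39.6 to 180, with Cd5l at -0.33 ± 0.52 (0.036 without ASO replicate 2), Adgre1 at 0.26 ± 0.23 and Clec4f at -0.20 ± 0.25. Of the 6 hepatocyte markers measured, 4 were above 0 and 2 below (median 0.27), with sums of 2242 to 4797 and 4194 to 5709, and Alb, Apoa1 and Ttr at 0.57 ± 0.27, 0.50 ± 0.26 and 0.41 ± 0.29. Without saline replicate 1, the array with the low ceiling, these were 0.33, 0.27 and 0.16. Tat was at 0.12, Asgr1 at -0.02 and Hnf4a at -0.13. No marker passed the adjusted threshold. At an unadjusted p under 0.05, 2 of 5 portal fibroblast markers (Gas6 and Fbln1) and 1 of 7 endothelial markers (Cdh5) were higher. Among the 4 bile duct markers 1 was lower (Krt19), and the other marker lists had none. The shares over all genes were 4.21% higher and 8.26% lower, and 11.3% were lower among all genes above the median level. Cdh5 was dim, with a mean of -1.53 over all arrays. The part of these cells in the values of Col18a1, Col5a3, Col4a2 and Col4a6 was not tested.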

How the data were processed

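The deposited table, credited to the authors, holds CodeLink array intensity values on a linear scale. For software, background step and scaling, nothing is given in the sources used here. It held 36227 probes; 36088 with at least 3 values per group were kept, raised to the 10th percentile of positive values and put on the log2 scale. Of 54 probes annotated with a collagen symbol, 53 named 1 gene; the other, shared with Drg2, was left out, as was the empty Col17a1 probe. Symbols were looked up in a gene table of GRCm38.p6.

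All probes were fitted with limma 3.58.1 (lmFit, eBayes, R 4.3.3), ASO against saline, without covariates. Replicates are separate mice per the series' design text. The fit was tested on simulated data of 36088 probes with changes above the median level and recovered 4.48% of 1.5-fold, 23.9% of 2-fold and 81.8% of 4-fold changes.

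Members, lists and tests were chosen with earlier results of these data known. Genes described singly are fixed main chains, the brightest 4 and the 3 smallest p-values per class, members whose groups do not overlap, and the 3 smallest p-values of each list. Alternatives were quantile and cyclic loess normalization, no floor, a pseudocount of 0.5, brighter probes only, eBayes with trend and robust, array weights, the mean of a gene's probes and leaving out each array (for list genes, added after seeing the data).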

Additional observations from a re-analysis of the deposited data

Results flagged for a closer look

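Within groups of 5, a value was set apart when its gap to the next exceeded 0.71 of the group's range (Dixon's 95% limit). The screen covered the 21 collagen genes chosen by the rule above to be described singly, and the other collagen genes were not screened. Of 42 groups tested 3 held such a value, and chance gives about 1 in 20. Col6a2 read 7.94 on ASO replicate 3, against 1.51 to 2.52 on the other ASO arrays. Col26a1 read 1.29 on saline replicate 5, against 2.68 to 2.80 on the other saline arrays. Col4a6 read -0.34 on saline replicate 4, against -1.06 to -0.93. Without that array the Col4a6 difference was -1.12. The 3 are not a full list, because values far from the rest also occurred in genes outside the screen. Col16a1 read -0.49 on ASO replicate 4, against -2.38 to -2.35 on the other ASO arrays. Col6a5 read -1.99 on saline replicate 1, against -1.15 to -0.92 on the other saline arrays. The cause of these values was not tested.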

How the results depend on the processing

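Precision is limited by there being 5 arrays per group. The count of probes called, 23, was 39 under cyclic loess normalization, 7 with no floor, 43 with a pseudocount, 42 with trend and robust, 73 with only probes above the median level, and 0 to 16 without 1 array (0 without saline replicate 2 or ASO replicate 3, 16 without ASO replicate 1). The count of collagen genes called was 1 under cyclic loess (Col4a6) and 0 in every other setting run. The 8 collagen genes at an unadjusted p under 0.05 were 4 with only brighter probes, which kept 23 of the 40 genes, and 7 to 10 without 1 array. Class medians moved by less than the spread between arrays in every setting run. Even so, the fibrillar median came to -0.22 with no floor and -0.28 with only brighter probes. That is near the basement membrane median, which was -0.26 in both settings. The sign of some small differences turned: Col14a1 was 0.0155 under quantile normalization, 0.0099 under cyclic loess and -0.24 to 0.032 without 1 array, and Col6a4 was -0.19 with the mean of its probes and -0.041 to 0.33 without 1 array. Without 1 array, Col15a1 ran from -0.20 to 0.064, Col1a1 from -0.095 to 0.22, Col26a1 from -0.015 to 0.36, Col5a2 from -0.54 to 0.16 and Col6a2 from -0.40 to 1.21. The correlation of Col1a1 with Col3a1, -0.01, was 0.050 as deviations from group means. The cause of these changes was not tested. No paired analysis was run, because the replicates are separate mice. The labels give no replicate numbers, so those used here follow the order of the sample titles.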

Other observations

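A probe annotated to both Col9a2 and Drg2 read 0.57 to 1.53 on the saline arrays and 0.27 to 1.42 on the ASO arrays, a difference of -0.48 ± 0.26 on the log2 scale. It could not be assigned to either gene.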
